A study of Homo sapiens with 5 samples.

Results

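The 10 genes described here, HTR7, KCNA3, CAMK2D, HAND2, ONECUT2, PLXDC2, UCHL1, EPB41L2, SLC41A1 and TLE1, were chosen by their measured counts in these libraries: 0 or 1 count in the untransduced library and more in the transduced cells. They are 10 of the 51055 gene IDs in the deposited count table, and all 10 were found by symbol. The cells are HL60, an established human leukaemia line of promyelocytes, the immature precursors of granulocytes. Cells were transduced with a ZIP lentivector, which encodes a hairpin meant to yield a full-length antisense to miR-378a-3p (2 libraries, ZIP 1 and ZIP 2), or with a control lentivector named SCR (2 libraries, SCR 1 and SCR 2), or were left untransduced (1 library). The submitters' texts call the SCR vector scramble in one place and empty in another. Vector was added with polybrene (8 µg/mL) at 20 infectious units per cell in both transduced groups. Puromycin (2 µg/mL) was then present between day 3 and day 8, and both vectors carry a green fluorescent protein. The microRNA gene MIR378A had 0 and 2 counts in ZIP, 0 and 0 in SCR and 0 in untransduced cells, so gene counts of this kind do not check the vector.

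The table holds raw counts, with library totals of 24406580 to 30925067. Levels are given as CPM, counts scaled by a library size that edgeR's TMM method corrected. Where the untransduced library had no count of a gene, folds were taken against 3 counts there, or 0.125 CPM, as a floor. The labels do not say whether replicates were separate cultures, and the p-values then cover only the spread among libraries, possibly a technical one. The untransduced state rests on 1 library, so a property of untransduced cells and a property of that library cannot be told apart, and neither can the effects of the vector, the transduction and the puromycin. In bulk RNA, fewer cells of a type and less RNA per cell cannot be told apart either. Promyelocyte markers were present in every library: the 8 marker genes MPO, ELANE, PRTN3, AZU1, CTSG, CD33, MYB and KIT summed to 23082 and 22435 CPM in ZIP, 12113 and 12116 CPM in SCR, and 24851 CPM in untransduced cells, most of it MPO. In SCR against untransduced 7 of these 8 markers fell and MYB rose (edgeR quasi-likelihood test), where 64.9% of all genes tested were called.

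As background, promyelocytes have committed to the granulocyte line, and genes of other lineages are largely silent in them. Lentiviral vectors integrate into the genome of the host cell, and a hairpin antisense vector of the ZIP type is built to bind a mature microRNA and keep it from its targets. A microRNA recognises a target mainly through its seed, the bases near its 5′ end, which pair with sites that lie mostly in 3′ untranslated regions. The genes described here encode unlike proteins: a serotonin receptor, an ion channel, a magnesium transporter, a kinase chain, a membrane receptor, 3 regulators of transcription, a membrane skeleton protein and a deubiquitinase.

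The microRNA that the ZIP vector targets is shown because it is what differs by design between the 2 vectors. Its RefSeq mature sequence (GRCh38.p14, plus strand, chr5:149732867-149732888) has 22 bases, with the seed, bases 2 to 8, in capitals.
hsa-miR-378a-3p: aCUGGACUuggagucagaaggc

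The members were 0 or 1 count in the untransduced library by choice, so the contrasts with that library are descriptions without a test. HTR7, KCNA3, CAMK2D, HAND2, ONECUT2 and PLXDC2 had 0 counts there, and UCHL1, EPB41L2, SLC41A1 and TLE1 had 1 count each, or 0.0417 CPM. The exact Poisson 95% interval of 1 count runs from 0.0253 to 5.57 counts. Intervals and floors cover counting error only. Every member had more counts than this upper end in each of the 4 transduced libraries, from 15 counts of UCHL1 in SCR 2 to 708 counts of EPB41L2 in SCR 2.

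The comparison that the choice did not set directly is ZIP against SCR. Of the 10 members 8 were lower in ZIP, 1 was higher and 1 did not pass (edgeR quasi-likelihood test, Benjamini-Hochberg over all genes tested). The background was 65.4% of 14643 genes called, 32.2% higher and 33.2% lower. The median log2 fold change was -1.36 over the members and -0.00184 over all genes tested. All 109 genes that were near absent before transduction and reached 1 CPM in a transduced group, described further on, had a median of -2.84, with 95.4% called lower. A gene chosen for a high level after transduction tends to differ between the transduced groups, so the members' count and median are a description of chosen genes and are read no further. HTR7, TLE1, SLC41A1 and EPB41L2 fell the most, to between 0.179 and 0.243 times the SCR level in pooled counts, while UCHL1 was 11.8-fold higher in ZIP. The plot of member levels shows these patterns library by library.

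**Figure D1:**
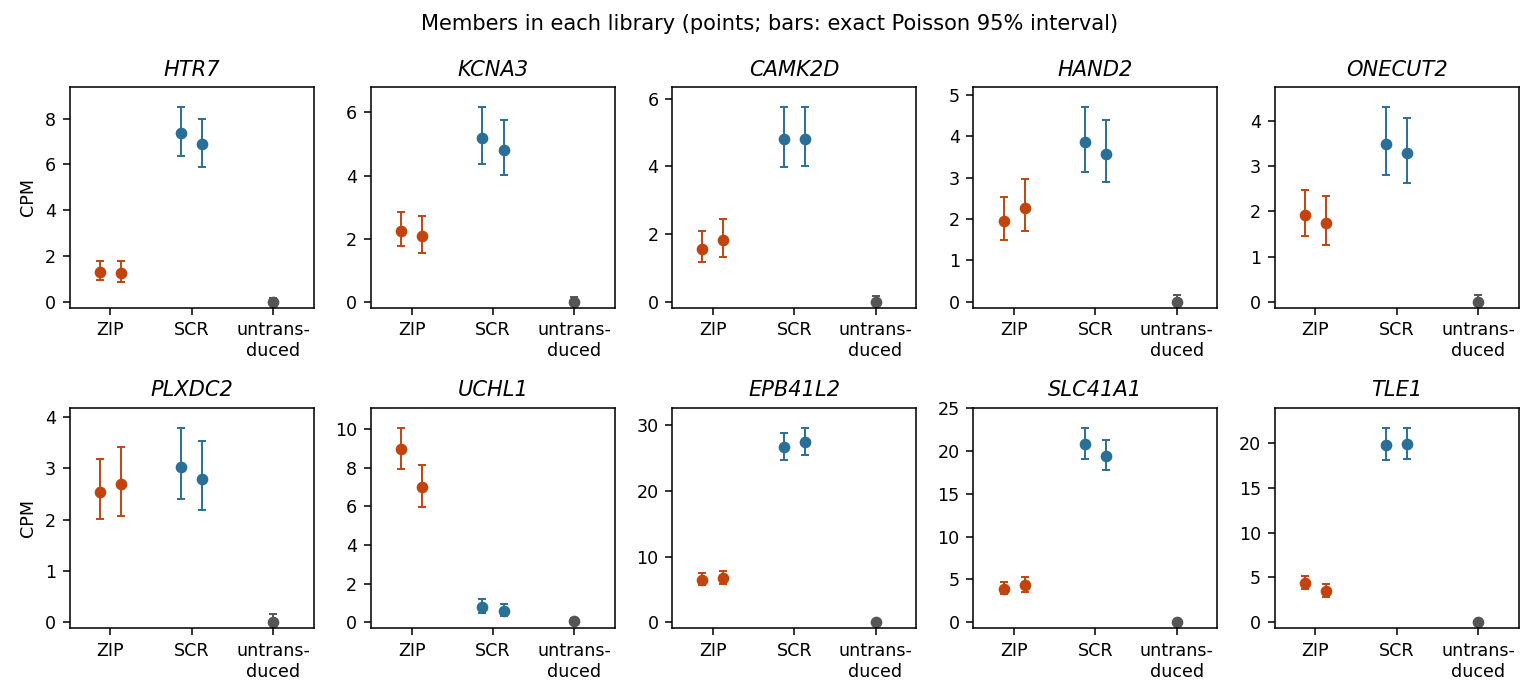
Level of each member in CPM (vertical axis, linear, own scale per gene) in the 2 ZIP, 2 SCR and 1 untransduced libraries. Points are single libraries and bars are exact Poisson 95% intervals of the count. In every panel except that of UCHL1 both ZIP points lie between the untransduced point and both SCR points. ZIP and SCR bars overlap for PLXDC2 and, between ZIP 2 and SCR 2, for HAND2. UCHL1 is high in ZIP at 8.95 and 6.98 CPM.

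HTR7 (ENSG00000148680, GRCh38 chromosome 10, 90740823 to 90857698, minus strand) encodes a serotonin receptor that couples to the stimulatory G protein and raises cyclic AMP. It had 40 and 30 counts in ZIP, 187 and 177 counts in SCR and 0 counts in untransduced cells, or 1.31 and 1.24 CPM in ZIP against 7.37 and 6.88 CPM in SCR. Both ZIP libraries were below both SCR libraries. On the log2 scale HTR7 fell by 2.48 ± 0.16 in ZIP (SE, n = 2 and 2; edgeR adjusted p = 3.8e-11). It was at least 10.2-fold higher in ZIP and at least 56.9-fold higher in SCR than in untransduced cells, against the floor of 3 counts. With the upper end of the exact interval of 0 counts, 3.69 counts, in place of that floor, the folds of HTR7 were 8.30 in ZIP and 46.3 in SCR, and those of the other 5 members without an untransduced count fell by the same factor.

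KCNA3 (ENSG00000177272, chromosome 1, 110672465 to 110675033, minus strand) encodes a voltage-gated potassium channel of the Shaker family, known for setting the membrane potential of T cells. It had 69 and 50 counts in ZIP, 132 and 124 in SCR and 0 in untransduced cells. That was 2.25 and 2.07 CPM in ZIP against 5.20 and 4.82 CPM in SCR, with no overlap. KCNA3 fell by 1.20 ± 0.16 on the log2 scale in ZIP against SCR (edgeR adjusted p = 1.0e-06). Against the floor it was at least 17.3-fold higher in ZIP and at least 40.0-fold higher in SCR than in untransduced cells.

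CAMK2D (ENSG00000145349, chromosome 4, 113451032 to 113761927, minus strand) encodes the delta chain of calcium/calmodulin-dependent protein kinase II, which turns calcium signals into phosphorylation. It had 48 and 44 counts in ZIP, 122 and 124 in SCR and 0 in untransduced cells, or 1.57 and 1.82 CPM in ZIP and 4.81 and 4.82 CPM in SCR. The SCR libraries were nearly alike and both above ZIP. CAMK2D fell by 1.52 ± 0.17 on the log2 scale (edgeR adjusted p = 1.0e-07). It was at least 13.4-fold higher in ZIP and at least 38.5-fold higher in SCR than in untransduced cells.

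SLC41A1 (ENSG00000133065, chromosome 1, 205789093 to 205813748, minus strand) encodes a magnesium transporter of the plasma membrane. It had 120 and 105 counts in ZIP, 529 and 500 in SCR and 1 in untransduced cells, or 3.92 and 4.34 CPM in ZIP against 20.8 and 19.4 CPM in SCR. SLC41A1 fell by 2.29 ± 0.10 on the log2 scale in ZIP against SCR (edgeR adjusted p = 3.3e-14). The ratio to untransduced cells was 98.4 in ZIP, with an exact 95% interval of 17.5 to 3903, and 483 in SCR, with an interval of 86.4 to 19085. With a single untransduced count these ratios have wide intervals, and the lower ends are the part the data bound.

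PLXDC2 (ENSG00000120594, chromosome 10, 19816239 to 20289856, plus strand) encodes a single-pass membrane protein that binds pigment epithelium-derived factor. It had 78 and 65 counts in ZIP, 77 and 72 in SCR and 0 in untransduced cells, or 2.55 and 2.69 CPM in ZIP and 3.03 and 2.80 CPM in SCR. Both ZIP libraries were below both SCR libraries, but the ratio of pooled counts, 0.895, had an exact 95% interval of 0.706 to 1.13. The log2 fold change was -0.16 ± 0.17 with a 95% interval of -0.51 to 0.19, and it did not pass (edgeR adjusted p = 0.426). PLXDC2 was at least 20.8-fold higher in ZIP and at least 23.3-fold higher in SCR than in untransduced cells.

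PLXDC2 was the only member whose annotated 3′ untranslated region held a match to the miR-378a-3p seed. The search was for AGTCCAG, the DNA complement of the seed, on the transcript strand, in the longest 3′ untranslated region annotated for each gene in GENCODE release 29, and it was added after the data were seen. The 3′ untranslated region of PLXDC2, stop codon included, is 10040 bases long, and 50.4% of the 272 genes with a region of like length (0.8 to 1.25 times) hold the same match. The match begins at base 5562 of that region. It is shown with 11 bases on either side (GRCh38, plus strand, chr10:20285367-20285395), the match in capitals.
PLXDC2 seed match: acagtagtgagAGTCCAGgcatgtaaccg
No such letters were found in the regions of the other 9 members, which range from 359 bases in UCHL1 to 14577 bases in ONECUT2. The share of genes of like length with a match was 3.43% for UCHL1 and 63.0% for ONECUT2. These matches describe sequence only and show neither binding nor a response.

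HAND2 (ENSG00000164107, chromosome 4, 173524969 to 173530229, minus strand) encodes a basic helix-loop-helix transcription factor of heart, limb and sympathetic neuron development. It had 60 and 55 counts in ZIP, 98 and 92 in SCR and 0 in untransduced cells, or 1.96 and 2.27 CPM in ZIP and 3.86 and 3.58 CPM in SCR. HAND2 fell by 0.82 ± 0.17 on the log2 scale in ZIP against SCR (edgeR adjusted p = 0.00027). It was at least 16.8-fold higher in ZIP and at least 29.7-fold higher in SCR than in untransduced cells. HAND2-AS1, an antisense RNA that overlaps HAND2 on the other strand, had 24 and 19 counts in ZIP, 38 and 44 in SCR and 3 in untransduced cells, and also fell in ZIP against SCR, by 1.03 ± 0.26 (edgeR adjusted p = 0.0019). The sources used here do not give the strand setting of the counting, so reads of the 2 genes cannot be told apart where they overlap.

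ONECUT2 (ENSG00000119547, chromosome 18, 57435685 to 57491297, plus strand) encodes a cut-homeodomain transcription factor known from liver, pancreas and nervous system development. It had 59 and 42 counts in ZIP, 89 and 85 in SCR and 0 in untransduced cells, or 1.93 and 1.74 CPM in ZIP and 3.51 and 3.30 CPM in SCR. ONECUT2 fell by 0.88 ± 0.18 on the log2 scale (edgeR adjusted p = 0.00019), a change close to that of HAND2. It was at least 14.7-fold higher in ZIP and at least 27.2-fold higher in SCR than in untransduced cells.

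TLE1 (ENSG00000196781, chromosome 9, 81583683 to 81689305, minus strand) encodes a corepressor of the Groucho family, which does not bind DNA itself and is recruited by factors such as RUNX and HES proteins. It had 134 and 84 counts in ZIP, 503 and 512 in SCR and 1 in untransduced cells, or 4.37 and 3.47 CPM in ZIP and 19.8 and 19.9 CPM in SCR. TLE1 fell by 2.32 ± 0.10 on the log2 scale in ZIP against SCR (edgeR adjusted p = 5.8e-14). The ratio to untransduced cells was 95.3 in ZIP, with an exact 95% interval of 16.9 to 3782, and 476 in SCR, with an interval of 85.3 to 18826.

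EPB41L2 (ENSG00000079819, chromosome 6, 130839347 to 131063322, minus strand) encodes a protein of the band 4.1 family, which tie membrane proteins to spectrin and actin. It had 198 and 163 counts in ZIP, 679 and 708 in SCR and 1 in untransduced cells, or 6.46 and 6.74 CPM in ZIP and 26.8 and 27.5 CPM in SCR. EPB41L2 fell by 2.04 ± 0.08 on the log2 scale in ZIP against SCR (edgeR adjusted p = 6.7e-15), the smallest standard error among the members. The ratio to untransduced cells was 158 in ZIP, with an exact 95% interval of 28.2 to 6252, and 651 in SCR, with an interval of 117 to 25719.

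UCHL1 (ENSG00000154277, chromosome 4, 41256413 to 41268455, plus strand) encodes a ubiquitin C-terminal hydrolase that is abundant in neurons. It was the one member higher in ZIP, with 274 and 169 counts in ZIP, 20 and 15 in SCR and 1 in untransduced cells, or 8.95 and 6.98 CPM in ZIP and 0.788 and 0.583 CPM in SCR. In pooled counts it was 11.8-fold higher in ZIP than in SCR, with an exact 95% interval of 8.35 to 17.2. The ratio to untransduced cells was 194 in ZIP, with an interval of 34.6 to 7668, and 16.4 in SCR, with an interval of 2.76 to 667. On the log2 scale it rose by 3.55 ± 0.21 (edgeR adjusted p = 6.8e-12). Of the 20 replicate ratios of the members, 19 had exact 95% intervals that included 1. The other was that of UCHL1 in ZIP, where ZIP 2 stood at 0.781 times ZIP 1, with an interval of 0.641 to 0.949. These intervals were not adjusted for their number, so 1 of 20 that leaves out 1 does not show a difference beyond counting error.

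**Figure D2:**
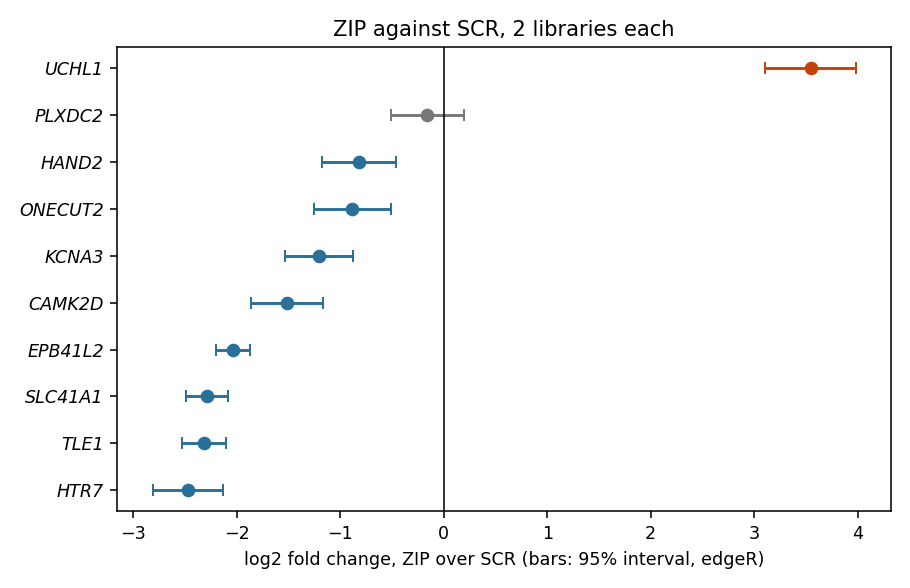
Log2 fold change of each member in ZIP against SCR (horizontal axis), with 95% intervals from the edgeR fit, 2 libraries in each group. Intervals lie below 0 for 8 members, that of PLXDC2 spans 0 from -0.51 to 0.19, and that of UCHL1 lies above 0.

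The promoters of 3 members are shown, UCHL1 as the member that went the other way and SLC41A1 and TLE1 as the pair of members with the most similar levels over the 5 libraries, a choice made after the values were seen. The windows run from 250 bases before to 50 after the RefSeq start (GRCh38.p14) and were searched on both strands for TGANTCA (the AP-1 motif), TGACGTCA (the cyclic AMP response element) and TATAAA (the TATA box), motifs of which no matches overlapped in the member windows. In UCHL1 (plus strand, chr4:41256678-41256977) the capitals mark a TATAAA match on the opposite strand that begins 29 bases before the start.
UCHL1 promoter: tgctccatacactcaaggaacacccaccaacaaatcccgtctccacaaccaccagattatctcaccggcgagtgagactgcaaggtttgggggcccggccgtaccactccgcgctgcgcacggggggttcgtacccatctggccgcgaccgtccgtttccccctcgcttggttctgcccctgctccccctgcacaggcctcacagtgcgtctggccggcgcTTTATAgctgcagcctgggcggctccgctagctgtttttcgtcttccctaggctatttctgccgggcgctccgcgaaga
In SLC41A1 (minus strand, chr1:205813149-205813448) and TLE1 (minus strand, chr9:81689498-81689797) none of the 3 motifs was found, and the capitals mark CpG dinucleotides, 27 in SLC41A1 and 44 in TLE1.
SLC41A1 promoter: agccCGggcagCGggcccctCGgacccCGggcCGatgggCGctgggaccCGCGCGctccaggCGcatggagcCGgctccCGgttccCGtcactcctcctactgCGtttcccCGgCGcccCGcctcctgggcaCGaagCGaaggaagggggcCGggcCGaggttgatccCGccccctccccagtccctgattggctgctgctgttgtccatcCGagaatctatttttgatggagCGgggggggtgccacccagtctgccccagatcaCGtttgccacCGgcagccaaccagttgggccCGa
TLE1 promoter: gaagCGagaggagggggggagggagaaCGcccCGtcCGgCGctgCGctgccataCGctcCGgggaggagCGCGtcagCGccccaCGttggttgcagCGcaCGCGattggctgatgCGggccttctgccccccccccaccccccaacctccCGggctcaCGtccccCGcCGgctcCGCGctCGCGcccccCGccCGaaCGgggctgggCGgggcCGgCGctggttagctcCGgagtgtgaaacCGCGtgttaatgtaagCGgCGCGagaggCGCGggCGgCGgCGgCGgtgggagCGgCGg
All 10 members had a RefSeq window, 15 windows in all. These held 1 to 50 CpG dinucleotides with a median of 24, and the median over all 35116 RefSeq windows was 14 with quartiles of 4 and 28. TATAAA was present in 2 of the 15 member windows and in 11.5% of all windows. TGANTCA was present in 1 of the 15 and in 7.71% of all windows. That 1 window belongs to another RefSeq start assigned to KCNA3 (minus strand, chr1:110671726-110672025). It lies beyond the 3′ end of the KCNA3 coordinates given above. TGACGTCA was present in 0 of the 15 and in 1.85% of all windows.

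Levels were compared between members per length, as CPM per kilobase of annotated exon. In ZIP the order of the mean level per kilobase ran from UCHL1 (3.49), KCNA3 (0.841), TLE1 (0.800), SLC41A1 (0.649), EPB41L2 (0.640), HAND2 (0.588), HTR7 (0.407), CAMK2D (0.230) and PLXDC2 (0.208) to ONECUT2 (0.113). Neighbours in this order whose libraries overlapped were KCNA3 and TLE1, SLC41A1 and EPB41L2, EPB41L2 and HAND2, and CAMK2D and PLXDC2. In SCR the order ran from TLE1 (4.05), SLC41A1 (3.17), EPB41L2 (2.63), HTR7 (2.28), KCNA3 (1.95), HAND2 (1.03), CAMK2D (0.654), UCHL1 (0.300) and PLXDC2 (0.232) to ONECUT2 (0.210), with no overlap between neighbours. UCHL1 was thus first by this mean level in ZIP and eighth in SCR, while ONECUT2 was last in both. Overlap here compares only the single libraries and leaves out counting error. In SCR UCHL1 rested on 20 and 15 counts, so its order there against PLXDC2 and ONECUT2 is not resolved within counting error. PLXDC2 and ONECUT2 had close SCR levels (0.232 and 0.210) on 149 and 174 pooled counts. The last place of ONECUT2 in SCR is therefore not resolved either.

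**Figure D3:**
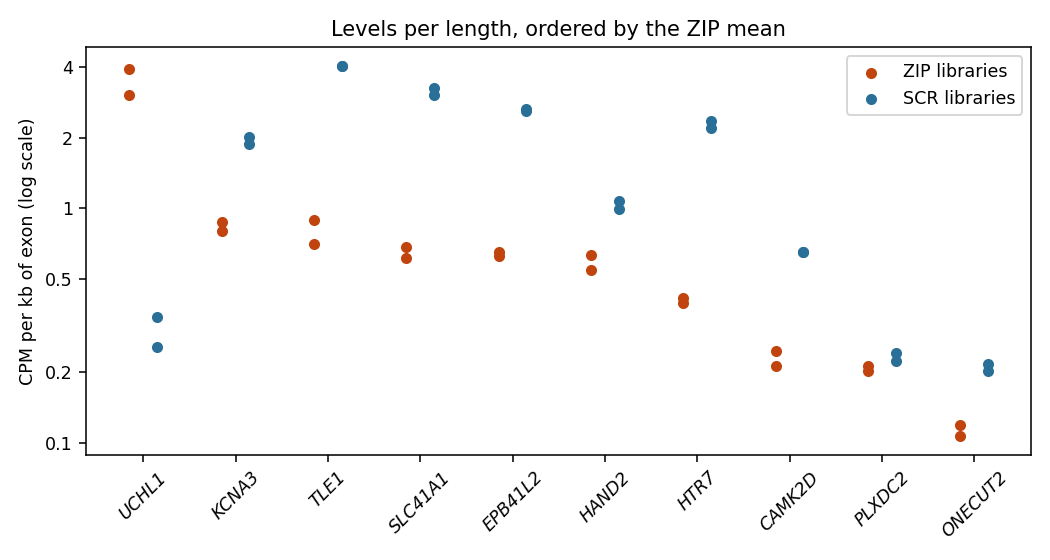
Level of each member in CPM per kilobase of annotated exon (vertical axis, log scale) in the single ZIP and SCR libraries, ordered by the ZIP mean. The ZIP points of UCHL1 lie far above its SCR points, those of PLXDC2 lie just below, and the ZIP points of the other 8 members lie below their SCR points.

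The members were set beside all genes with a like absence before transduction, by a threshold that is wider than the choice of the members. Of all gene IDs, 31943 had 0 or 1 count in the untransduced library, and 109 of these had a mean of at least 1 CPM in SCR or in ZIP, 96 of them protein-coding. All 10 members were among the 109. Of the 109, 3 were called higher and 104 lower in ZIP than in SCR (edgeR quasi-likelihood test). A gene that enters this set through the group where it is high tends to differ between the groups, so these counts describe the set and are no evidence about it. The other 99 genes had a median of the ZIP means of 0.238 CPM and of the SCR means of 1.74 CPM, and the members 2.39 CPM in ZIP and 4.91 CPM in SCR. The levels that follow are those the members were chosen on and are a description only. A ZIP mean of at least 1 CPM was reached by all 10 members and by 6 of the other 99 genes. Ranked by the ZIP mean among the 109, the members held ranks 1 to 4, 6 to 10 and 13. By the SCR mean EPB41L2, SLC41A1 and TLE1 held ranks 1 to 3, and UCHL1 rank 108.

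**Figure D4:**
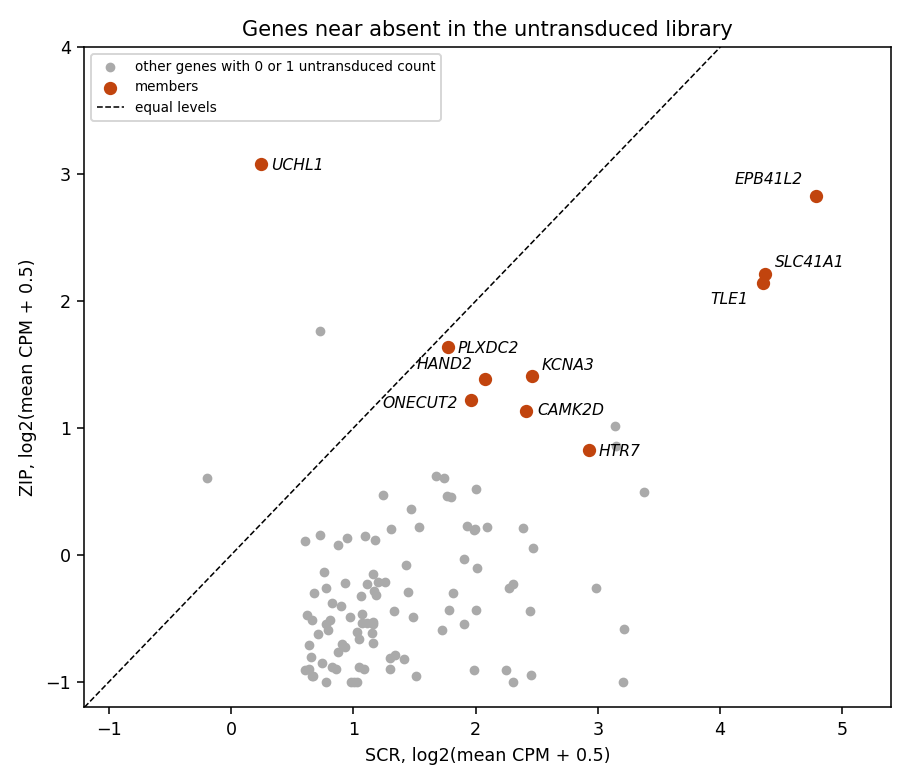
The 109 genes with 0 or 1 count in the untransduced library and a mean of at least 1 CPM in SCR or ZIP, plotted by log2 of the mean CPM plus 0.5 in SCR (horizontal axis) and ZIP (vertical axis). Coloured points are the 10 members, grey points the other 99 genes, and the dashed line marks equal levels. All but 3 genes lie below the line. Of the members, UCHL1 lies far above the line, and the other 9 lie below it, at higher ZIP levels than most grey points.

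Of the non-members in that set, 6 reached 1 CPM in ZIP. CHMP3-AS1 (0 untransduced counts) had 2.81 and 2.98 CPM in ZIP against 0.946 and 1.36 CPM in SCR. EPS8, an actin regulator (1 count), had 1.47 and 1.57 CPM in ZIP against 8.31 and 8.36 CPM in SCR, and ADAM23 (1 count) 1.47 and 1.16 CPM in ZIP against 8.51 and 8.28 CPM in SCR. The homeobox gene HOXA11 and the immune receptor gene SLAMF8 averaged 1.04 and 1.02 CPM in ZIP. ENSG00000228407, named here by its ID only, had 1.14 and 0.909 CPM in ZIP against 0.355 and 0.389 CPM in SCR. These 6 were named after their values were seen. CHMP3-AS1 and ENSG00000228407 were, with UCHL1, the 3 genes of the set called higher in ZIP. Just outside the threshold, 48 genes had 2 counts in the untransduced library and a mean of at least 1 CPM in SCR or ZIP. The 3 of these with the highest mean over the transduced libraries were VCAN (0.163 and 0.0827 CPM in ZIP, 20.8 and 21.2 in SCR), STC2 (0.620 and 0.537 in ZIP, 20.2 and 18.6 in SCR) and OAS2 (0.131 and 0.165 in ZIP, 17.9 and 19.1 in SCR). Just inside it, at 1 count, stood UCHL1, EPB41L2, SLC41A1 and TLE1.

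The genes most like each member were found by the Euclidean distance in log2(CPM + 0.5) over the 5 libraries, as a description. SLC41A1 and TLE1 were each other's nearest genes in the whole table, at a distance of 0.328, as were HAND2 and ONECUT2, at 0.349. The nearest gene to KCNA3 was CAMK2D, at 0.450, while CAMK2D lay marginally nearer to ZNF703, at 0.449. HTR7 lay nearest to ADAM23 (0.367) and EPS8 (0.434), and EPB41L2 to TIFAB (0.346) and PHACTR3 (0.412). PLXDC2 lay nearest to HAND2 (0.567) and TREM2 (0.642). UCHL1 had the most distant nearest gene, STOX2 at 1.41, with 188 and 155 counts in ZIP, 40 and 43 in SCR and 6 in untransduced cells.

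Most relatives of the members had few counts in every library. Of 42 relatives by gene family, 27 had at most 10 counts in every library, and 15 of these had no count at all. Low counts are common in the table: of its 51055 gene IDs, 31943 had 0 or 1 untransduced count. Of those, 22450 had no count in any transduced library. The share of all genes at the limit of 10 counts was not taken, so the relatives are not read as unusually silent. None of the other 7 KCNA channels exceeded 10 counts, and of the 13 other serotonin receptors only HTR2B did, with 1.01 and 1.28 CPM in ZIP, 0.906 and 0.816 in SCR and 0.834 in untransduced cells. In the families of EPB41L2, TLE1, UCHL1, CAMK2D and SLC41A1 a relative was well expressed before transduction. EPB41L3 had 226 and 225 CPM in ZIP, 240 and 247 in SCR and 135 in untransduced cells. CAMK2G had 51.6 and 52.6 CPM in ZIP, 66.2 and 64.8 in SCR and 43.7 in untransduced cells, and TLE4 88.8 and 84.8 CPM in ZIP, 73.6 and 77.3 in SCR and 64.0 in untransduced cells. UCHL5 had 132 and 138 CPM in ZIP, 154 and 151 in SCR and 114 in untransduced cells, and SLC41A3 41.7 and 40.7 CPM in ZIP, 42.6 and 42.4 in SCR and 58.7 in untransduced cells. Among relatives, 3 of 13 tested rose and 6 fell in ZIP against SCR, where 65.4% of all genes tested were called. Against untransduced cells 8 of 15 rose and 2 fell both in ZIP and in SCR (edgeR quasi-likelihood test, Benjamini-Hochberg), contrasts that share the untransduced library. The background was 58.2% of 15832 genes called in ZIP against untransduced, 28.5% higher and 29.7% lower, and 64.9% in SCR against untransduced, 32.7% higher and 32.2% lower.

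The 10 lists of relatives and pathway partners held 116 genes besides the members, of which 115 were in the table. In ZIP against SCR 24 of the 68 tested rose and 27 fell (median log2 fold change -0.03), where 32.2% of all genes tested were higher and 33.2% lower. In SCR against untransduced 28 of 72 rose and 21 fell (median 0.06), where 32.7% of all genes tested were higher and 32.2% lower. TWIST1, a basic helix-loop-helix relative of HAND2 known from mesenchyme, had 5 and 5 counts in ZIP, 26 and 36 in SCR and 0 in untransduced cells, and fell by 2.70 ± 0.41 on the log2 scale in ZIP against SCR (edgeR adjusted p = 8.2e-06). CUX2, a cut-homeodomain gene like ONECUT2, had 6 and 3 counts in ZIP, 20 and 12 in SCR and 0 in untransduced cells. It fell by 1.90 ± 0.51 on the log2 scale in ZIP against SCR (edgeR adjusted p = 0.0028). NID1, a basement membrane protein, had 28 and 27 counts in ZIP, 358 and 336 in SCR and 10 in untransduced cells, and CTTN, the actin-binding cortactin, 16 and 11 in ZIP, 61 and 62 in SCR and 5 in untransduced cells. Both fell in ZIP against SCR.

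Other partners differed between ZIP and SCR in both directions, where 65.4% of all genes tested were called, and the untransduced level places them. In the calmodulin pathway list 3 of 11 tested genes were higher and 7 lower in ZIP than in SCR, with CALM2 at 387 and 386 CPM in ZIP, 569 and 569 in SCR and 501 in untransduced cells. In the potassium channel list KCNN4, a calcium-activated potassium channel, was lower in ZIP, with 40.8 and 36.3 CPM in ZIP, 71.1 and 68.2 in SCR and 51.6 in untransduced cells. The channel beta chain KCNAB2 was higher in ZIP, with 854 and 839 CPM in ZIP, 669 and 674 in SCR and 571 in untransduced cells. In the TLE1 list the corepressor TLE5 was lower in ZIP, with 32.1 and 35.0 CPM in ZIP, 67.9 and 65.9 in SCR and 63.6 in untransduced cells. Some genes higher in ZIP than in SCR were not higher in ZIP than in untransduced cells. RUNX3 had 170 and 170 CPM in ZIP, 98.7 and 99.6 in SCR and 162 in untransduced cells, and SATB1, in the ONECUT2 list, 67.6 and 66.3 CPM in ZIP, 32.5 and 31.8 in SCR and 64.6 in untransduced cells. Both were called lower in SCR than in untransduced cells and were not called in ZIP against untransduced. The same held for UCHL3, with 55.7 and 52.4 CPM in ZIP, 39.5 and 38.8 in SCR and 58.0 in untransduced cells. SLC18A2, the vesicular monoamine transporter, was called lower in both transduced groups, with 10.5 and 9.63 CPM in ZIP, 7.88 and 6.96 in SCR and 24.5 in untransduced cells. In the magnesium transport list 6 of 11 were higher and 3 lower in ZIP than in SCR, with TRPM7 at 170 and 168 CPM in ZIP, 125 and 125 in SCR and 121 in untransduced cells. In the membrane skeleton list 1 of 9 was higher and 5 were lower, and in the ubiquitin list 4 of 9 were higher and 4 lower.

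The protein-coding genes on either side of the members, 20 in all, were not part of the choice. Of these, 6 had no count in any library and 10 were tested. In ZIP against SCR 5 rose and 5 fell, where 65.4% of all genes were called. In ZIP against untransduced 7 rose and 2 fell, where 58.2% were called, and in SCR against untransduced 6 rose and 2 fell, where 64.9% were called (edgeR quasi-likelihood test). AKAP7, an anchoring protein of protein kinase A, lies 72344 bases beyond EPB41L2 on the opposite strand and was the one neighbour among the 109 genes near absent before transduction. It had 30 and 19 counts in ZIP, 70 and 78 in SCR and 1 in untransduced cells. AKAP7 entered those 109 genes through its SCR mean alone, so its lower level in ZIP is a description and no test of it is read. RAB29, a small GTPase 13633 bases from SLC41A1 on the same strand, had 20.4 and 21.6 CPM in ZIP, 47.8 and 43.9 in SCR and 16.3 in untransduced cells. CD53, a leukocyte tetraspanin 196155 bases from KCNA3, had 80.8 and 78.9 CPM in ZIP, 169 and 171 in SCR and 62.4 in untransduced cells. RAB29 and CD53 rose in SCR against untransduced and fell in ZIP against SCR. Beside UCHL1, APBB2 rose to 12.7 and 13.1 CPM in ZIP, against 7.57 and 7.97 in SCR, with 16.7 in untransduced cells, and LIMCH1 had no count. Other flanking genes went against their member, higher in ZIP than in SCR where the member was lower. On the log2 scale these were ANK2 beside CAMK2D (0.50 ± 0.14), FECH beside ONECUT2 (0.62 ± 0.05), RPP30 beside HTR7 (0.12 ± 0.04) and TLE4 beside TLE1 (0.21 ± 0.04). KIF20B beside HTR7 and FBXO8 beside HAND2 were lower in ZIP than in SCR.

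Of gene copies that could share reads, only the pseudogenes HTR7P1 and TLE1P1, named after members, were examined. The pseudogene HTR7P1 had 120 and 104 counts in ZIP, 131 and 107 in SCR and 108 in untransduced cells, a pattern unlike that of HTR7, and TLE1P1 had 1 count over all libraries, in SCR 1. Reads shared between HTR7 and HTR7P1 were not tested.

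Markers of other cell types were read beside the members. Of 11 monocyte and macrophage markers in the table, LYZ rose, 9 fell and CD163 did not pass in ZIP against SCR (edgeR quasi-likelihood test). In SCR against untransduced 10 rose and FCGR3A did not pass. Over all genes tested 65.4% were called in ZIP against SCR and 64.9% in SCR against untransduced. CD14 had 3.49 and 4.17 CPM in ZIP, 54.6 and 53.5 in SCR and 2.09 in untransduced cells, and CSF1R 7.18 and 6.90 CPM in ZIP, 41.0 and 43.9 in SCR and 1.29 in untransduced cells. The summed level of the list, most of it LYZ, was 1450 and 1453 CPM in ZIP, 1321 and 1331 in SCR and 353 in untransduced cells. Of the 8 promyelocyte markers, 6 rose and MYB fell in ZIP against SCR. The 8 members that fell in ZIP went the same way as most of the monocyte markers. The members were chosen on their levels, so this shared direction is a description only and is read no further. The marker SIGLEC1 was itself in the set of genes near absent before transduction, and VCAN stood just outside its threshold. The part of the markers in the result was not tested.

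The neuronal and neuroendocrine markers SNAP25, GAP43, NEFM, TH and DBH had no count in any library, and the list of such markers summed to 0.914 and 0.992 CPM in ZIP, 1.14 and 1.36 in SCR and 0.793 in untransduced cells. Beside the higher UCHL1 in ZIP the neuronal markers were therefore near 0 and no higher in ZIP than in SCR. The CD3 chain genes CD3D, CD3E and CD3G had at most 20 counts in any library. The T and NK cell list summed to 343 and 338 CPM in ZIP, 334 and 330 in SCR and 301 in untransduced cells. Most of that sum was CD4, which monocytes also express. NKG7, a granule protein of NK and cytotoxic T cells, had 12.4 and 12.9 CPM in ZIP, 21.5 and 19.8 in SCR and 11.1 in untransduced cells, and was called lower in ZIP than in SCR and higher in SCR than in untransduced cells. CD3D had 1 and 0 counts in ZIP, 13 and 7 in SCR and 0 in untransduced cells. Others of this list went other ways. CD3E had 2 and 0 counts in ZIP, 4 and 3 in SCR and 20 in untransduced cells. CD3G had 8 and 14 counts in ZIP, 5 and 1 in SCR and 4 in untransduced cells. Of 4 genes of the list tested in ZIP against SCR, CD4 was higher and 2 were lower, where 65.4% of all genes tested were called. KCNA3 moved the same way as NKG7 but not as the whole list, and the part of these markers in its level was not tested. Fibroblast markers summed to at most 0.849 CPM, epithelial markers to at most 2.60 CPM and endothelial markers to at most 0.622 CPM in any library. KRT18 had 5 and 4 counts in ZIP, 30 and 33 in SCR and 0 in untransduced cells, and VWF 2 and 0 counts in ZIP, 14 and 13 in SCR and 0 in untransduced cells.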

How the data were processed

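The authors deposited raw counts per Ensembl gene ID for 5 libraries. Per the submitters' processing notes, Bowtie2 and featureCounts were used, whereas the design text names CASAVA 1.8.2, TopHat 2, Cufflinks and HTSeq. These sources give no build, annotation or strand setting, and the labelled kit is one for small RNA. Members and lists were chosen with earlier results of these data known. Symbols came from a current list of gene names, and from GENCODE release 29 (GRCh38) where that list gave none. Coordinates and exon lengths came from GENCODE release 29, which matched 44305 of 51055 IDs. Library totals were scaled by TMM. ZIP against SCR was tested over the 4 transduced libraries with edgeR 4.0.16 (quasi-likelihood, filterByExpr with a minimum of 10 counts, Benjamini-Hochberg, threshold 0.05). Genes other than the members were also tested against the untransduced library in a fit of all 5 libraries, which assumes that the lone library varies like the others. Intervals are exact Poisson or Clopper-Pearson, at 95%. The tests were checked on simulated counts. Besides the members, the text names the genes of each list that were near absent before transduction, up to 3 others of smallest p, flanking and overlapping genes, the 2 nearest patterns, and genes just outside the threshold. Alternatives were other scalings, no filter, DESeq2 1.42.0, a fit of all libraries, a replicate block and leaving out each replicate. The list genes CUX1, MRC1, TUBB3, NEFL, TRAC and PECAM1 were not analysed here.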

Additional observations from a re-analysis of the deposited data

How the results depend on the processing

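All 100 values of the members' ZIP against SCR change under other scalings, no filter, DESeq2, a fit of all 5 libraries, the replicate block and each left-out replicate kept their direction and their side of the threshold. PLXDC2 had adjusted p from 0.268 to 0.740 over these, and the highest for HAND2 was 0.0107. Calls in ZIP against SCR numbered 7644 with DESeq2 and 9709 with the replicate block, and 8707 to 9088 with a replicate left out, against 9571. Scaling by library totals alone gave 4026 higher and 5492 lower. In SCR against untransduced library totals gave 6157 higher and 4121 lower, against 5178 and 5095, and a left-out replicate gave 9548 to 10556 calls. In ZIP against untransduced a left-out replicate gave 8390 to 9169 calls. No shared deviation of same-numbered libraries was seen: the difference of replicate 1 and 2 correlated at 0.0161 between ZIP and SCR across 14643 genes. This cannot show whether same-numbered libraries were handled together, which the labels do not say. The 109 genes near absent before transduction became 54 when only 0 counts were allowed, since fewer genes qualify, and 107 to 110 with a replicate left out. Of 72 recomputed folds over untransduced cells, all lay between 0.813 and 1.15 times the reported value, and 22 moved by more than the replicate SD. Depth limits the untransduced state: 0 counts allow up to 3.69 counts.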
